A study of Bos taurus with 8 samples.

Results

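Fibroblast growth factors (FGFs) and their cell-surface receptors were examined in RNA sequencing of 8 bovine preadipocyte clones. The set was chosen by name and comprised 10 genes, namely the ligand genes *FGF1*, *FGF2*, *FGF5*, *FGF7* and *FGF10* and the receptor genes *FGFR1*, *FGFR2*, *FGFR3*, *FGFR4* and *FGFRL1*. Of these, 9 were among the 18871 named genes in the count table and all 9 entered the test of 18339 genes. *FGF1* was not analysed here. The clones came from the stromal vascular fraction (SVF), the non-adipocyte cells released from fat, of adult male Angus cross steers, taken either from fat within muscle (intramuscular fat, IMF) or from fat under the skin (subcutaneous fat, SF), and the labels name 5 animals, a number that differs in the study's methods. There were 4 IMF clones and 4 SF clones, each grown from a single cell of an SVF sample of its depot, and the study had picked them from a larger number of lipid-forming clones by how well they grew and differentiated and by their shape. According to the study's methods RNA was taken in growth medium before adipogenic induction, whereas the series' design text places induction before sequencing. Which IMF and SF clones shared an animal is not given in the sources used here, so a clone stands for its founder cell as well as for its depot and its animal.

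FGFs are secreted proteins that bind receptor tyrosine kinases together with heparan sulfate, and a bound receptor signals through the adaptor FRS2, RAS and the kinases MEK and ERK. ERK raises the transcription of ETS factors and of feedback inhibitors such as the Sprouty and dual-specificity phosphatase families. FGFR1 to FGFR4 carry the kinase, whereas FGFRL1 binds FGFs but lacks it. In fat, FGF10 signalling through FGFR2 takes part in the growth and differentiation of preadipocytes, and in skeletal muscle FGFR4 is found in myoblasts and regenerating fibres.

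Each clone had between 19654917 and 29308882 counts on named genes. The levels below are counts scaled to a normalised library of 1000000 counts (CPM), and 3 counts in a clone corresponded to 0.0981 to 0.165 CPM. The IMF clones lay much closer together than the SF clones. Even numbers made up 60.9 to 81.3% of the counts of 1 to 5 in a clone, as they would if both reads of many pairs had been counted, so a count is not always a separate molecule. Counting alone then gives a median chi-square per gene between 2 clones of 0.455 for single reads and up to 0.910 for read pairs. For genes with 500 to 2000 counts in a pair of clones, the median was 2.66 to 6.02 for SF pairs and 0.848 to 1.41 for IMF pairs. IMF1 with IMF2 (0.880) and IMF3 with IMF4 (0.848) thus differed by no more than the noise of counted read pairs in that range. At 10000 to 30000 counts both pairs exceeded it (2.98 and 2.61), and the clones were kept as 4 samples. Whether the IMF libraries are fully independent samples was not tested, and if they are not, n = 4 overstates their number and the IMF SDs and the p-values are too small. Values with IMF1 and IMF2 and with IMF3 and IMF4 summed are therefore given beside the called FGF genes, and in that fit 1193 genes were called in place of 1618. The p-values measure only the spread between these clones. Marker genes were counted as higher or lower at an adjusted p under 0.05 and a log2 fold change of 1 or more in either direction. By that rule 4.78% of all genes were higher and 4.04% lower in IMF. All 13 skeletal muscle markers in the table were higher in IMF (summed level 1111 to 1257 CPM in IMF and 2.70 to 34.1 CPM in SF), as were 13 of 15 endothelial markers (396 to 443 CPM and 43.4 to 79.9 CPM). The summed level of 12 stromal progenitor markers, which include collagens, was 31905 to 33432 CPM in IMF and 53331 to 60897 CPM in SF, a sum carried by *COL1A1*, *COL1A2* and *COL3A1*. Of the 12 genes 1 was higher and 3 lower in IMF, and their median log2 fold change was -0.00056. The 7 mature adipocyte markers in the table summed to 34.4 to 36.7 CPM in IMF and 27.3 to 43.2 CPM in SF. The 7 leukocyte markers summed to 18.7 to 42.4 CPM in IMF and 51.9 to 87.7 CPM in SF without overlap, 1 being higher and 1 lower in IMF, with a median log2 fold change of -1.33.

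Of the 9 FGF genes, *FGFR4* was higher and *FGFR2* lower in the IMF clones at an adjusted p under 0.05 and a log2 fold change of 1 or more in either direction (22.2% of the genes). By the same rule 8.82% of all genes tested were called, 877 higher (4.78%) and 741 lower (4.04%) in IMF. With normalisation to total counts alone the higher share of all calls was 66.67% in place of 54.2%, and over all genes the median log2 fold change moved from -0.03 to 0.12. *FGF2* and *FGFR1* were also lower in IMF at an adjusted p under 0.05, but by less than the fold threshold, which makes 4 of 9 genes at that p alone, 3 of them lower in IMF, against 25.8% of all genes and 11.4% lower. The IMF and SF clones did not overlap for these 4 genes, 1 higher and 3 lower in IMF, against 32.1% of all genes in either direction and 14.1% lower in IMF. The median log2 fold change was -0.47 over the 9 genes. In 6 of the 9 genes SF1 was the highest SF clone, and the share of all genes for which it was highest was not counted. SF1 stood apart beyond the FGF genes. At 500 to 2000 counts its pairs with other SF clones had a median chi-square of 4.74 to 6.02, against 2.66 to 3.02 for the other SF pairs.

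**Figure D1:**
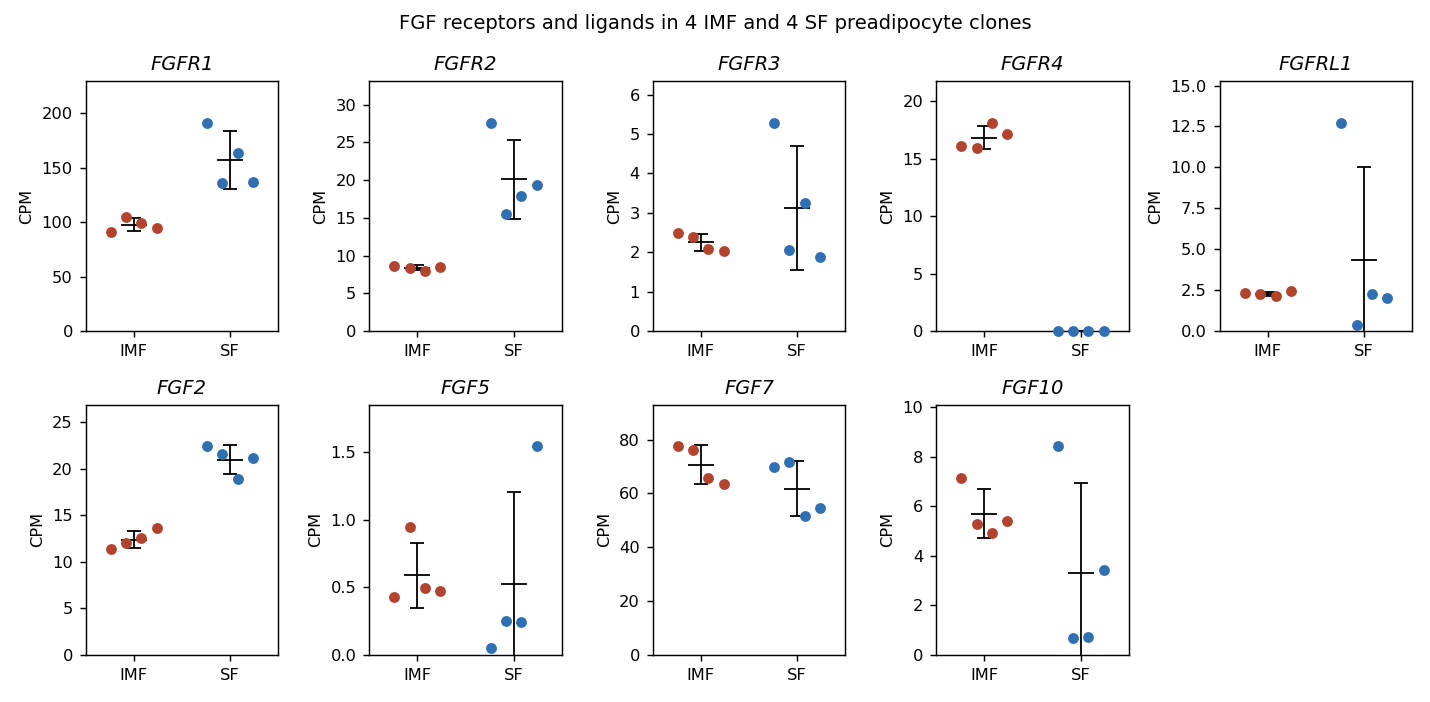
Level of the 9 FGF genes in each clone, in CPM on a linear axis from 0, with 4 IMF and 4 SF clones per panel (points, clones 1 to 4 from left to right) and the group mean ± SD. *FGFR4* was 15.9 to 18.1 CPM in IMF and at most 0.0501 CPM in SF. In every gene but *FGFR4* the SF clones spanned a wider range than the IMF clones. For *FGF5*, *FGF10*, *FGFR3* and *FGFRL1* the SF clones reached past the IMF range on both sides. SD bars that reach under 0 are cut at the axis.

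*FGFR4* (chromosome 7, 38575626 to 38586374, ARS-UCD2.0) encodes a receptor tyrosine kinase known from myoblasts and from liver, where it receives FGF19. It was counted 336, 487, 400 and 361 times in IMF1 to IMF4 and 0, 1, 0 and 0 times in SF1 to SF4. The IMF levels were 16.1, 15.9, 18.1 and 17.2 CPM, with a mean of 16.8 ± 1.02 CPM (SD, n = 4). The single SF count came from SF2, so expression in SF was not detectable at this depth beyond 3 counts per clone. Against that floor *FGFR4* was at least 114-fold higher in IMF, and at least 57.0-fold if every molecule was counted as a read pair, which makes the floor 6 counts. The fitted log2 fold change was 9.88 (adjusted p = 2.89e-06, edgeR quasi-likelihood test) and depends on the prior count. It was 7.36 with a prior count of 2 and 11.56 without SF2, so its size is not fixed by these counts. With the IMF clones summed in pairs it remained called (adjusted p = 0.000293). In IMF the gene stood at the 60.4th percentile of all genes tested by mean CPM, and in SF at the 0.649th. The skeletal muscle markers moved with it, *MYOD1*, *MYOG*, *CKM* and *CHRNA1* being at 0 in all SF clones and above 0 in IMF, and so did the endothelial markers, *KDR*, *EMCN*, *SELE* and *CD93* being at 0 in all SF clones. In these bulk libraries fewer cells of a type and less RNA per cell cannot be told apart, and the part of these cell-type differences in the *FGFR4* result was not tested. The genes whose log2 CPM followed *FGFR4* most closely over the 8 clones, which share libraries and the 2 groups, included *TIE1* (an endothelial receptor kinase) and *TENM3* (a teneurin), with Pearson's r of 0.9998 and 0.9989.

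*FGFR2* (chromosome 26, 41450677 to 41557736) encodes a receptor whose splice forms bind different ligands, FGF7 and FGF10 binding the form named IIIb. Gene counts do not separate these forms, and the gene shares 4397 bases with a long non-coding RNA gene that was not analysed here. Its levels were 8.68, 8.41, 8.02 and 8.57 CPM in IMF1 to IMF4 and 27.6, 15.5, 17.9 and 19.4 CPM in SF1 to SF4, so all SF clones stood above all IMF clones. The means were 8.42 ± 0.288 and 20.1 ± 5.26 CPM (SD, n = 4 each), a level 2.39-fold higher in SF (log2 fold change -1.25, SE 0.17, 95% interval -1.64 to -0.86, adjusted p = 0.0012). Tested against a log2 change of 1 rather than 0, *FGFR2* did not pass (adjusted p = 0.427), and with the IMF clones summed in pairs it remained called (adjusted p = 0.0231). The spread among SF clones was 26.2% of the mean and among IMF clones 3.41%. The genes closest to it in pattern were *ACTN1* (an actinin), *SCX* (scleraxis, a tendon transcription factor) and *ARSG* (a sulfatase), with r of 0.997, 0.996 and 0.994.

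*FGFR1* (chromosome 27, 33548428 to 33599029), the receptor gene with the highest level, was found at 91.4, 105, 99.6 and 94.4 CPM in IMF1 to IMF4 and 191, 136, 164 and 137 CPM in SF1 to SF4. The groups did not overlap, and the means of 97.5 ± 5.86 and 157 ± 26.2 CPM made it 1.61-fold higher in SF (log2 fold change -0.69, SE 0.12, adjusted p = 0.00426). With the IMF clones summed in pairs the adjusted p was 0.0516.

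*FGFR3* (chromosome 6, 116766308 to 116781167), a receptor best known from cartilage, was low throughout. It was 2.49, 2.39, 2.09 and 2.05 CPM in IMF1 to IMF4 and 5.29, 2.05, 3.25 and 1.87 CPM in SF1 to SF4, and the groups overlapped. The log2 fold change of -0.47 had a 95% interval of -1.24 to 0.31 (adjusted p = 0.358), and it was -0.09 without SF1. *FGFRL1* (chromosome 6, 117346083 to 117359322), the kinase-less receptor, was 2.35, 2.26, 2.13 and 2.43 CPM in IMF1 to IMF4 and 12.7, 0.35, 2.27 and 2.04 CPM in SF1 to SF4. The highest SF clone was 36.3 times the lowest, and the IMF clones lay inside the SF range. Its log2 fold change was -0.92 (SE 0.84, adjusted p = 0.467), and it was 0.55 without SF1.

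To compare levels between genes, counts were also divided by gene length and scaled to a sum of 1000000 in each clone (TPM). The level of the 5 receptor genes together was 55.1, 54.3, 60.4 and 50.6 TPM in IMF1 to IMF4 and 97.6, 69.8, 81.9 and 58.9 TPM in SF1 to SF4, with SF4 below IMF3. *FGFR1* held 76.9 ± 1.29% of the receptor TPM in IMF and 87.9 ± 3.77% in SF. *FGFR4* held 13.2 to 15.4% in IMF, second to *FGFR1* there, whereas in SF *FGFR2* was second with a mean of 8.21%. By mean TPM the order in IMF was *FGF7* (53.1), *FGFR1* (42.4), *FGFR4* (8.06), *FGF2* (3.13), *FGF10* (2.82), *FGFR2* (2.70), *FGFRL1* (1.27), *FGF5* (1.14) and *FGFR3* (0.719). The ranges of *FGF7* and *FGFR1* overlapped, as did those of *FGF2* with *FGF10*, *FGF10* with *FGFR2*, and *FGFRL1* with *FGF5*. In SF, *FGFR1* (67.4 TPM) and *FGF7* (46.0 TPM) led with overlapping ranges. They were followed by *FGFR2* (6.31), *FGF2* (5.24), *FGFRL1* (2.34), *FGF10* (1.56), *FGFR3* (0.982) and *FGF5* (0.941), among which each range overlapped the next, and by *FGFR4* (0.00644).

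**Figure D2:**
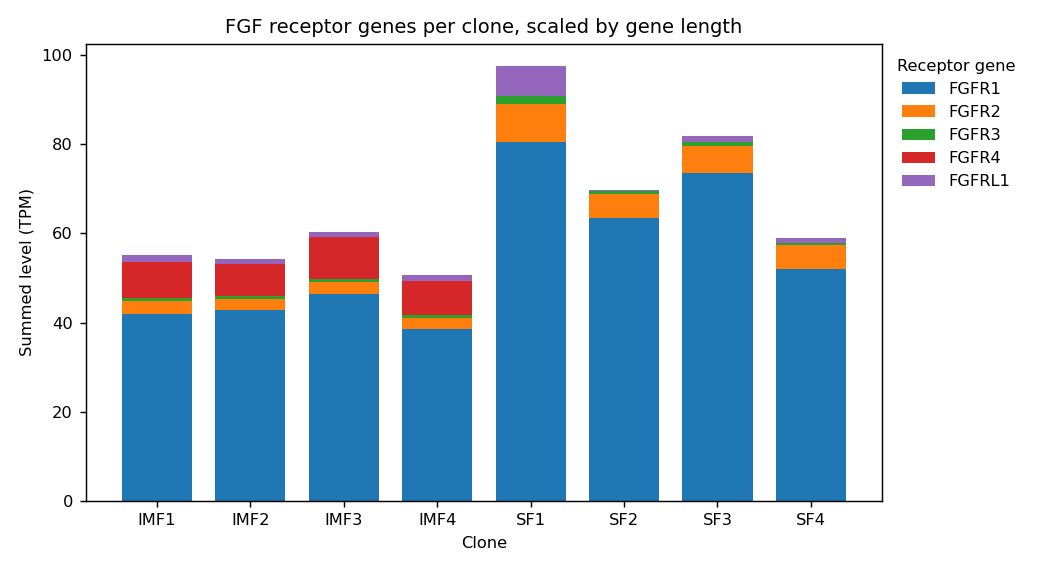
Level of the 5 receptor genes in each clone, in TPM on a linear axis from 0, stacked by gene. *FGFR1* made up 75.9 to 78.7% of the stack in IMF clones and 82.5 to 91.0% in SF clones, and the *FGFR4* segment was visible in IMF clones.

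Among the 4 ligand genes tested, none passed both thresholds by edgeR, DESeq2 or limma-voom, and 1 had an unadjusted p under 0.05, which 37.9% of all genes had. That gene was *FGF2* (chromosome 17, 34801330 to 34860849), which encodes basic FGF, a ligand without a classical signal peptide that promotes the growth of many cultured cells. It was 11.4, 12.0, 12.5 and 13.6 CPM in IMF1 to IMF4 and 22.4, 21.6, 18.8 and 21.1 CPM in SF1 to SF4. The groups did not overlap, with means of 12.4 ± 0.936 and 21.0 ± 1.52 CPM, and the level was 1.69-fold higher in SF (log2 fold change -0.76, SE 0.09, adjusted p = 0.000576, and 0.0128 with the IMF clones summed in pairs). *FGF2* shares 5832 bases with *NUDT6*, and reads from such overlaps may be uncertain because the sources differ on whether the libraries keep strand. *NUDT6* had fewer counts in every clone (44 to 141) and lay in the other direction (log2 fold change 0.55, adjusted p = 0.122).

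*FGF7* (chromosome 10, 60792509 to 60854157) encodes keratinocyte growth factor, which stromal cells make. It was the ligand gene with the highest level, 77.4, 76.2, 65.7 and 63.4 CPM in IMF1 to IMF4 and 69.7, 71.6, 51.5 and 54.4 CPM in SF1 to SF4. The groups overlapped, and the log2 fold change of 0.20 had a 95% interval of -0.10 to 0.49 (adjusted p = 0.319). *FGF7* held 88.2% of the TPM of the 4 ligand genes in IMF and 85.3% in SF. It overlaps *FAM227B*, which had 0 to 19 counts per clone.

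*FGF10* (chromosome 20, 30504441 to 30601752), a ligand of mesenchymal cells and preadipocytes, was even among IMF clones and uneven among SF clones. It was 7.15, 5.27, 4.94 and 5.43 CPM in IMF1 to IMF4 and 8.42, 0.701, 0.73 and 3.42 CPM in SF1 to SF4. SF1 stood above every IMF clone and the other SF clones stood below them, a 12.0-fold spread within SF. The log2 fold change was 0.79 (SE 0.72, 95% interval -0.86 to 2.43, adjusted p = 0.470). Without SF1 it was 1.83 with an adjusted p of 0.04996, against 0.04996 to 1 over the alternatives. *FGF5* (chromosome 6, 94954669 to 94979368), known for ending the growth phase of hair follicles, had 9, 29, 11 and 10 counts in IMF1 to IMF4 and 1, 5, 6 and 28 counts in SF1 to SF4. At this depth no difference was detectable (log2 fold change 0.20, 95% interval -1.79 to 2.19, adjusted p = 0.899), and the sign turned on leaving out IMF2, SF1, SF2 or SF3.

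SF1, the SF clone with the highest *FGFR1*, *FGFR2*, *FGFR3*, *FGFRL1*, *FGF2* and *FGF10*, also had the highest summed level of 7 pericyte and smooth muscle markers, 7486 CPM against 2448, 1556 and 4724 CPM in SF2 to SF4 and 1279 to 1430 CPM in IMF. That sum is carried by *ACTA2*, and of the 7 markers 3 were higher and 3 lower in IMF, against 4.78% and 4.04% of all genes. *DES* is in this list and in the skeletal muscle list. SF1 was likewise the highest SF clone in the endothelial, leukocyte, mature adipocyte and stromal progenitor sums, but not in the skeletal muscle sum. The part of these markers in the spread of the FGF genes was not tested.

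Other genes of the pathway were taken from 8 lists holding 118 genes, of which 96 were tested. Of these 7 were higher and 9 lower in IMF (16.7%, against 8.82% of all genes), with a median log2 fold change of -0.12. The balance of directions changed with the fit. It was 7 higher and 12 lower with DESeq2, 8 and 6 with limma-voom, and 6 and 5 with the IMF clones summed in pairs.

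Among other FGF genes, *FGF18* and *FGF19* were lower and *FGF11* was higher in IMF. *FGF19*, an endocrine ligand best known from the intestine, was 0.384, 0.327, 0.136 and 0.0952 CPM in IMF1 to IMF4 and 1.95, 1.05, 3.45 and 3.31 CPM in SF1 to SF4, a log2 fold change of -3.33 (SE 0.56, adjusted p = 0.00345). *FGF18*, a ligand active in cartilage and bone, was 1.25, 0.85, 0.499 and 1.24 CPM in IMF and 1.90, 16.1, 14.6 and 3.97 CPM in SF, for a log2 fold change of -3.25 (SE 0.70, adjusted p = 0.0107), so that SF1 stood nearest to IMF. The *FGF18* call was lost with limma-voom (adjusted p = 0.116) and with the summed IMF clones. *FGF11*, an intracellular FGF homologue that is not secreted, was 9.88, 8.31, 9.02 and 8.00 CPM in IMF and 0.667, 0.2, 0 and 0 CPM in SF, for a log2 fold change of 5.34 (SE 0.81, adjusted p = 0.00206). The SF counts of *FGF11* were 13, 4, 0 and 0, so SF3 and SF4 lay under the floor and the size of this fold is uncertain too. *FGF9* (0.65 ± 0.277 CPM in IMF and 1.60 ± 0.725 CPM in SF), *FGF21* (1.96 ± 1.24 and 1.21 ± 0.651 CPM) and *FGF13* (0.967 and 1.35 CPM) did not pass by edgeR, at adjusted p of 0.0879, 0.468 and 0.621, and DESeq2 called *FGF9* lower in IMF. All 8 counts of *FGF9* were even numbers, as the counts of 8.60% of the genes tested were (0 taken as even), so its counts may stand for fewer molecules. None of the 9 members had 8 even counts.

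Co-receptors, heparan sulfate proteins and the enzymes that make heparan sulfate set how FGFs are held at the cell surface, and their counts are to be read against 8.82% of all genes called. Among 6 co-receptors and carriers, *NCAM1*, an adhesion molecule that binds FGFR1, was higher in IMF, at 186, 181, 196 and 174 CPM against 45.1, 33.8, 14.9 and 78.1 CPM (log2 fold change 2.10, SE 0.42, adjusted p = 0.00762). The adhesion proteins *FLRT2* and *CDH2* of the same list were lower in IMF at an adjusted p under 0.05 but by less than the fold threshold (log2 fold change -0.87 and -0.86, adjusted p = 0.0141 and 0.0289). Among 11 heparan sulfate core proteins, 2 were lower in IMF (4.04% of all genes were) and none higher past both thresholds by edgeR, whereas limma-voom called 1 more, *COL18A1*, as higher. *SDC3*, a syndecan, was 16.4, 16.9, 18.1 and 15.9 CPM in IMF and 76.8, 49.0, 104 and 50.8 CPM in SF, for a log2 fold change of -2.06 (SE 0.24, adjusted p = 0.000576). *GPC4*, a glypican, averaged 62.2 ± 1.08 CPM in IMF and 162 ± 20.5 CPM in SF, for a log2 fold change of -1.38 (SE 0.10, adjusted p = 4.31e-05). Of 18 genes for heparan sulfate synthesis and editing, *HS3ST1*, a 3-O-sulfotransferase, was the only gene past both thresholds by edgeR (5.56% of the list), and it was higher in IMF. DESeq2 called it and 2 further genes, *HS3ST4* and *SULF2*, both lower in IMF. *HS3ST1* had 65, 116, 90 and 81 counts in IMF and 1, 0, 1 and 2 in SF, at least 25.1-fold higher against 3 counts per clone, or 12.6-fold against 6 (adjusted p = 8.32e-05). By an adjusted p under 0.05 alone, 1 core protein was higher and 3 lower in IMF. Of the synthesis and editing genes 3 were higher and 2 lower by that p. Of all 18339 genes 2639 were higher and 2085 lower.

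Between the receptor and ERK, none of 24 adaptor and RAS-MAPK genes passed both thresholds by edgeR, DESeq2 or limma-voom, and 7 had an unadjusted p under 0.05, against 37.9% of all genes. At an adjusted p under 0.05 alone 3 were lower in IMF, namely *ARAF*, *MAP2K2* and *PIK3R1*, with log2 fold changes of -0.40, -0.21 and -0.70, a count to be read against 11.4% of all genes. The median log2 fold change of the 24 genes was -0.11.

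**Figure D3:**
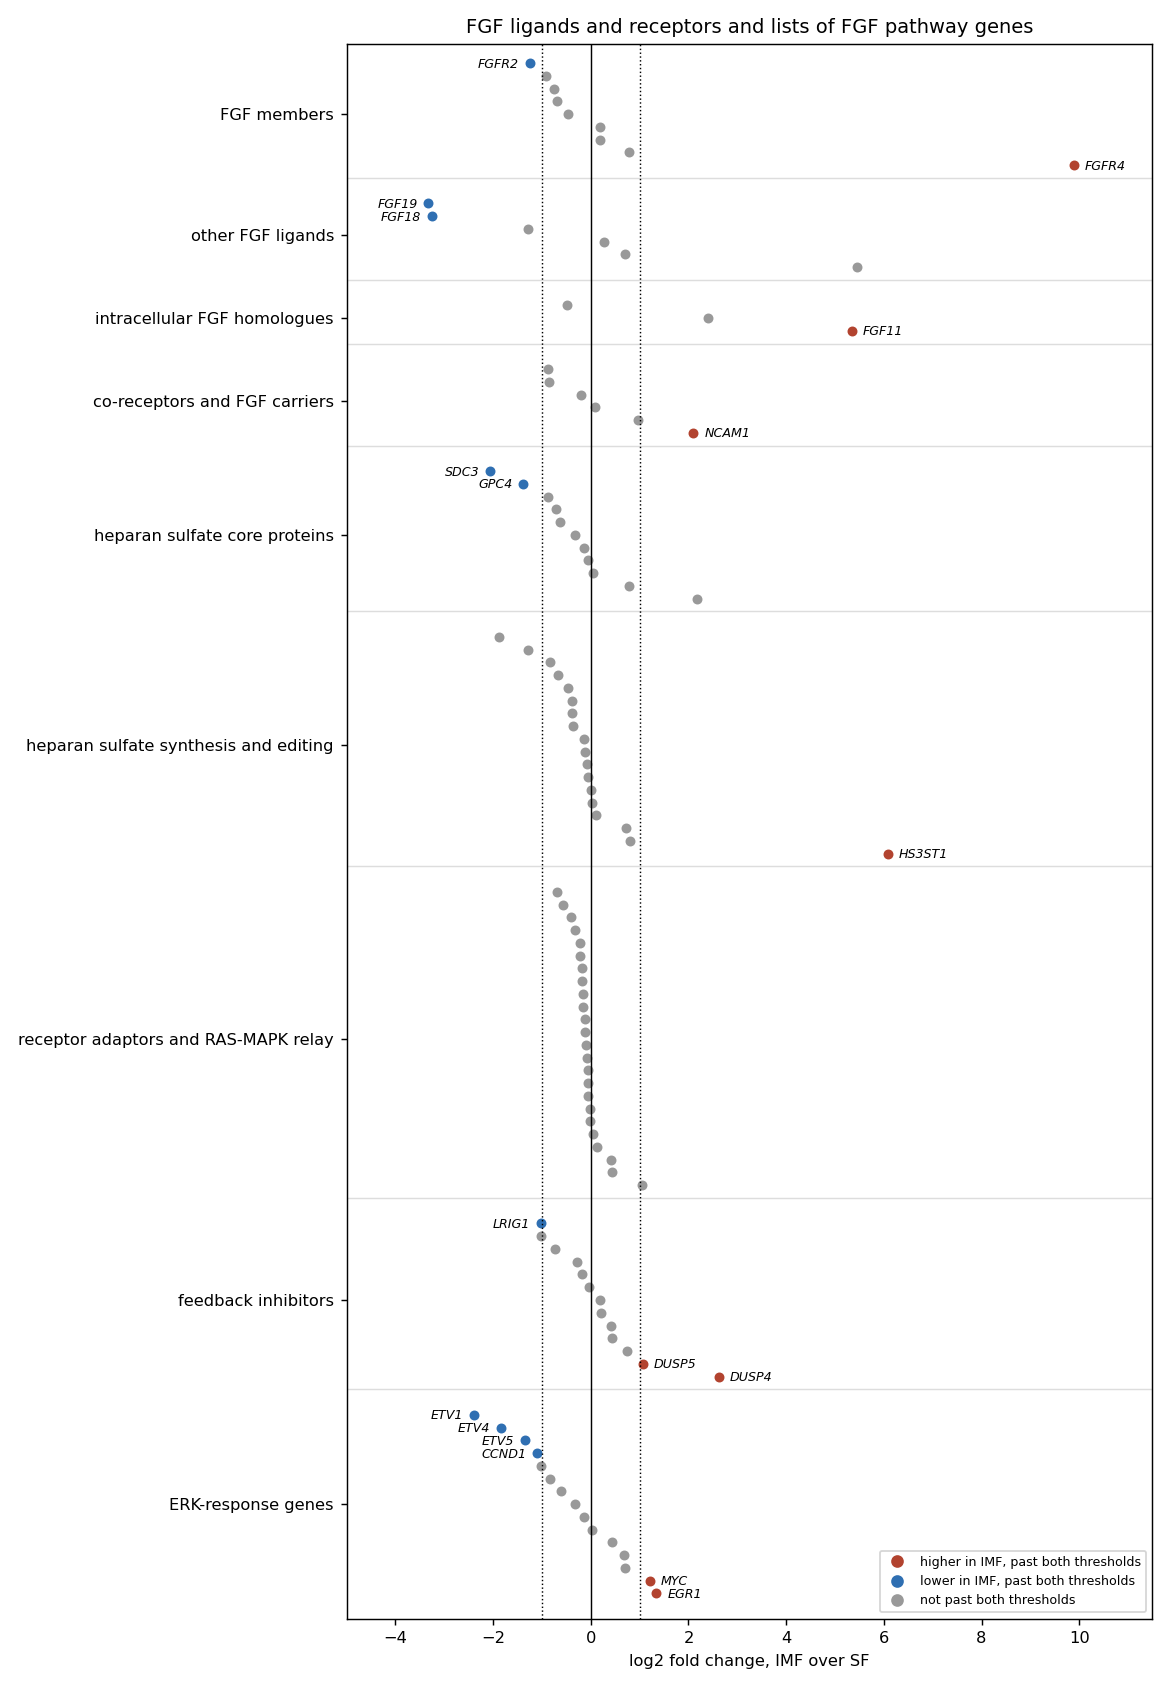
Log2 fold change (IMF over SF) of the 9 FGF genes and of 96 tested pathway genes, each point a gene and each row block a list, with dotted lines at a change of 1 in either direction and named, coloured points for genes past both thresholds. *FGFR4* lay farthest to the right at 9.88, and the grey point at 5.45 was *FGF20*, which had 0 to 12 counts per clone and an adjusted p of 0.0988.

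Downstream of ERK, genes moved in both directions. Of 13 feedback inhibitors 2 were higher and 1 lower in IMF, by the rule that called 8.82% of all genes. By an adjusted p under 0.05 alone 3 were higher and 2 lower, against 25.8% of all genes in either direction. *DUSP4* and *DUSP5*, phosphatases that act on MAP kinases, averaged 1.73 ± 0.264 and 5.67 ± 0.553 CPM in IMF against 0.28 ± 0.141 and 2.70 ± 0.652 CPM in SF (log2 fold change 2.63 and 1.07, adjusted p = 0.00293 and 0.00569). *LRIG1*, which restrains receptor tyrosine kinases, averaged 15.3 ± 0.275 CPM in IMF and 31.2 ± 10.0 CPM in SF, for a log2 fold change of -1.03 (adjusted p = 0.00623). *DUSP5* fell under the fold threshold without IMF3, SF2 or SF3, and the *LRIG1* call was lost without SF1, with total counts alone, with limma-voom and with the IMF clones summed in pairs.

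Of 15 genes that ERK signalling induces, 2 were higher and 4 lower in IMF, against 4.78% and 4.04% of all genes, with a median log2 fold change of -0.31. By an adjusted p under 0.05 alone 4 were higher and 5 lower, against 25.8% of all genes in either direction. The ETS factor *ETV1* was 6.91, 6.87, 6.75 and 5.71 CPM in IMF1 to IMF4 and 22.7, 34.5, 32.1 and 47.9 CPM in SF1 to SF4, a log2 fold change of -2.38 (SE 0.21, adjusted p = 0.000153). Its relative *ETV5* was 3.84, 2.98, 2.95 and 3.05 CPM in IMF and 7.29, 5.41, 8.93 and 10.9 CPM in SF, for a log2 fold change of -1.34 (SE 0.23, adjusted p = 0.00336). *ETV4* was 1.63, 1.86, 1.09 and 1.71 CPM in IMF and 1.59, 6.96, 7.59 and 6.45 CPM in SF, for a log2 fold change of -1.84 (SE 0.45, adjusted p = 0.0187), with SF1 within the IMF range. *CCND1*, the gene of cyclin D1, was 49.1, 50.3, 53.1 and 59.8 CPM in IMF and 65.7, 92.9, 122 and 175 CPM in SF, for a log2 fold change of -1.10 (SE 0.27, adjusted p = 0.0175). The immediate early gene *EGR1* was higher in IMF, at 11.8, 11.8, 13.1 and 12.2 CPM against 2.46, 5.46, 5.07 and 6.28 CPM (log2 fold change 1.34, SE 0.25, adjusted p = 0.0055). *MYC*, a growth-promoting transcription factor, was 72.9, 74.4, 79.5 and 72.2 CPM in IMF and 37.3, 15.9, 36.8 and 39.0 CPM in SF, for a log2 fold change of 1.21 (SE 0.25, adjusted p = 0.00874). The *ETV4* call was lost without IMF3 and with limma-voom, the *CCND1* call without SF4 and with total counts alone, and the *MYC* call without SF2, and all 3 were lost with the IMF clones summed in pairs.

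**Figure D4:**
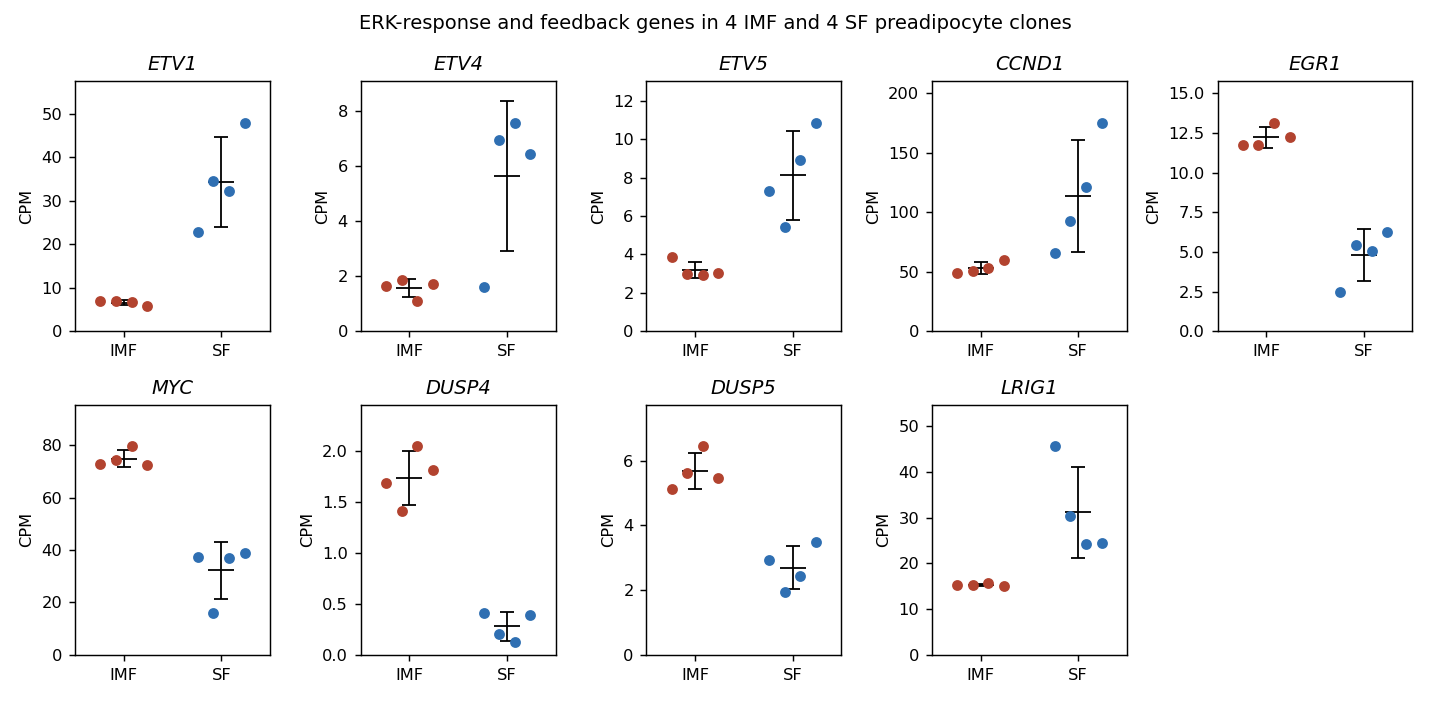
Level of 9 ERK-response and feedback genes in each clone, in CPM on a linear axis from 0, with 4 IMF and 4 SF clones per panel (points, clones 1 to 4 from left to right) and the group mean ± SD. *ETV1* was 5.71 to 6.91 CPM in IMF and 22.7 to 47.9 CPM in SF, while *DUSP4*, *EGR1* and *MYC* lay higher in every IMF clone than in any SF clone.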

How the data were processed

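RNA was sequenced from 4 IMF and 4 SF clones. The authors deposited whole-number counts per gene and clone, made with Trimmomatic 0.39 and featureCounts 2.0.2 on ARS-UCD2.0. The aligner is HISAT2 in the methods and STAR 2.7.11a in the submitters' processing notes, and the annotation release is not given in the sources used here. Columns with the authors' own DESeq2 comparison and group means were not used. A row without a gene name (0.0148 to 0.0209% of counts) was left out.

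Genes with at least 20 counts in total were tested with edgeR 4.0.16 (R 4.3.3; TMM factors, quasi-likelihood F test, two-sided, Benjamini-Hochberg over 18339 genes). TPM used the deposited gene length. Floors cover counting error only. Whether both reads of a pair were counted is not given in the sources used here. Alternatives used DESeq2 1.42.0, limma 3.58.1, other scalings and filters, a replicate block, each clone left out and, chosen after seeing the data, IMF clones summed in pairs. The fit was also run on simulated independent counts with planted changes, and the outcome is not reported here. Those counts had the same dispersion in IMF and SF. That run therefore does not cover the unequal spread of the groups or any dependence between IMF libraries. Positions are from RefSeq.

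The members and lists were chosen with earlier results of these data known. All members were named, with list genes past both thresholds (at most 4 a direction, by mean CPM), other FGF genes of at least 1 mean CPM in a group, and the 3 genes closest in pattern to each called member, of which 1 is not reported here. A gene singled out otherwise (*FGF20*, list genes at the adjusted p alone, overlapping genes, genes called by another tool alone) was chosen after its values were seen.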

Additional observations from a re-analysis of the deposited data

Results flagged for a closer look

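In 18 groups of 4 clones (9 FGF genes, IMF and SF) the gap between the most distant clone and its nearest neighbour was divided by the range of the group, and 4 groups exceeded Dixon's 95% critical value. Chance alone passes about 1 in 20 groups of normally distributed values, a rate that need not hold at counts as low as those of *FGF5*. *FGFRL1* in SF had a ratio of 0.845 from SF1, at 12.7 CPM against 0.35 to 2.27 CPM in the other SF clones. *FGF5* had a ratio of 0.871 in IMF, from IMF2 at 0.948 CPM against 0.432 to 0.499 CPM (29 counts against 9 to 11, in the deepest library). In SF its ratio was 0.867, from SF4 at 1.54 CPM against 0.0513 to 0.250 CPM (28 counts against 1 to 6). *FGFR4* in SF had a ratio of 1, from the 1 count in SF2 against 0 in the other SF clones. Counts of 0, 0, 0 and 1 give that ratio at any level, so it says nothing about SF2 and is not to be set against the chance rate.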

How the results depend on the processing

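Results were recomputed under 21 alternatives. *FGFR4* kept its call in all of them, with a log2 fold change of 7.36 to 11.56 and an adjusted p of at most 0.000938. *FGFR2* kept its call in 20 and lost it when tested against a log2 fold change of 1 (-1.25, adjusted p = 0.427). That test, a stricter one by construction, called 631 genes in place of 1618, 1 FGF gene in place of 2 and 7 pathway genes in place of 16. *FGFRL1* changed sign with limma-voom and with weights per group (0.088 and 0.089), and ranged from -1.31 to 0.55 when clones were left out. *FGF5* ranged from -0.18 to 1.66 and *FGF10* from 0.41 to 1.83 when clones were left out, *FGF10* passing both thresholds without SF1. The cause was not tested. Leaving out single clones gave 1332 to 1643 genes, 2 to 3 FGF genes and 14 to 20 pathway genes.

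Same-numbered IMF and SF clones deviated together only weakly (r from -0.00933 to 0.139 over 4 pairs). Because the IMF clones differed little beyond counting noise, a weak r cannot show whether same-numbered clones share an animal. The numbers were not taken to pair them, because the sources used here do not give the pairing. With the replicate number as a block 1489 genes, 2 FGF genes and 13 pathway genes were called, 1356 of the genes being shared with the fit without it, and the pathway calls lost were *FGF18*, *ETV4* and *LRIG1*. With IMF clones summed in pairs, 1193 genes, 2 FGF genes and 11 pathway genes were called. At 1 to 29 counts per clone for *FGF5*, depth limits what can be seen.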

Other observations

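Several heparan sulfate genes varied widely among SF clones, and were chosen after their values were seen. *COL18A1*, the collagen that yields endostatin, was 124, 124, 120 and 126 CPM in IMF1 to IMF4 and 101, 1.65, 3.29 and 3.69 CPM in SF1 to SF4 (adjusted p = 0.223 by edgeR). It was called higher in IMF by limma-voom, with and without weights per group, and without SF1, and its log2 fold change ranged from 1.75 to 5.42 over the 21 alternatives. *SULF1*, which removes 6-O-sulfate from heparan sulfate, was 15.4 to 18.9 CPM in IMF and 2.1, 49.6, 23.1 and 37.6 CPM in SF1 to SF4 (adjusted p = 0.516), and it was called lower in IMF without SF1. Its relative *SULF2* was 19.0 to 20.3 CPM in IMF and 9.34, 74.6, 63.9 and 42.3 CPM in SF1 to SF4 (adjusted p = 0.0986), and it was called lower in IMF by DESeq2 and without SF1. In all 3 genes SF1 stood apart from the other SF clones.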
